A study of Mus musculus with 4 samples.

Results

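The 7 genes described here encode the core of the desmosome, the spot-like junction of epithelial cells, and were listed by function: Dsp, Dsg2, Dsc2, Jup, Pkp1, Pkp2 and Pkp3, out of 21887 protein-coding genes of the RefSeq annotation. All 7 were found by symbol. Every Slug or Snail peak was taken that touched one of these genes or the 10 kb beyond either end, which gave 15 of the 41612 Slug peaks and 15 of the 28375 Snail peaks. The study, on how the related factors Slug and Snail differ in switching on epithelial-mesenchymal transition (EMT), used chromatin immunoprecipitation and sequencing (ChIP-seq) in 2 cell lines from breast cancers of the MMTV-PyMT mouse model, where a mouse mammary tumour virus promoter turns on polyoma middle T in the mammary gland. Slug was mapped in pBl.1G cells, labelled epithelial with high Slug, using a rabbit monoclonal Slug antibody, and Snail in pBl.3G cells, labelled mesenchymal with high Snail, using an antibody labelled as raised to Snail and Slug together. The remaining 2 libraries, input DNA of each line, had no peak list used here. Cells of both lines were untreated and fixed in formaldehyde. With 1 library per factor there is no replicate error and no test, and factor, antibody and cell line cannot be told apart. A difference in peaks is therefore between these 2 libraries. By the label of its antibody the Snail library may also hold Slug sites, so that a Snail peak here is a peak of that library, and an overlap of the lists need not mean that both factors bind.

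Desmosomes rivet neighbouring cells together. The desmosomal cadherins, desmogleins and desmocollins, bind across the gap. Inside the cell the armadillo proteins plakoglobin and plakophilin and the plakin desmoplakin tie them to keratin filaments. Slug and Snail are zinc finger factors of one family that bind E-box DNA, CAGGTG in particular, and are known as repressors of epithelial junction genes during EMT.

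RefSeq promoter sequences (GRCm38.p6, the assembly that mm10 shares) matched 2 of the 7 members by gene ID, Dsp and Jup, and both are shown. A Snail peak covered the gene start of each. Dsg2, Dsc2, Pkp1, Pkp2 and Pkp3 are given by gene span. The Dsp stretch is chr13:38151044-38151323 on the plus strand and the Jup stretch chr11:100397761-100398040 on the minus strand. Both run 5′ to 3′ from 250 bases before the gene start to 30 after it, and capitals mark any match to CANNTG, the general E-box.
Dsp: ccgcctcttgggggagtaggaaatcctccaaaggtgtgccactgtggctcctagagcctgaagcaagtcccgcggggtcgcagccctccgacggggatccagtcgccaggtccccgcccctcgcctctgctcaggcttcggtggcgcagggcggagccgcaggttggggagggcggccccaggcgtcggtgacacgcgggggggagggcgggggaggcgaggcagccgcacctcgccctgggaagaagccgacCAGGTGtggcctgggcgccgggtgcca
Jup: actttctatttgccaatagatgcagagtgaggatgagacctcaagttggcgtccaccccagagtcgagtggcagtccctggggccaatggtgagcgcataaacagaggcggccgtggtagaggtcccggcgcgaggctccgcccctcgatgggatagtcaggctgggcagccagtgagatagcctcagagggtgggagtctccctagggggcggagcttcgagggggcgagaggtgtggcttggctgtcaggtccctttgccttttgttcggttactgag
Over the full 300-base window, which ends 50 bases after the gene start, CANNTG and CAGGTG were searched on both strands, CAGGTG being one form of CANNTG. The Dsp window held 1 match to CANNTG, which was a CAGGTG, at chr13:38151297-38151302. Its first letter is base 4 of the gene, counting the gene start as base 1. The Jup window held none of these letters. Of 32851 promoters of the same length in the table, 20.2% held CAGGTG on either strand and 72.3% held CANNTG. A match is a description of the letters and not a mapped site.

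Slug peaks lay at 6 of the 7 desmosome genes (85.7%) and Snail peaks at 5 (71.4%). Slug was found at every member but the desmocollin gene Dsc2, and Snail at every member but the cadherin genes Dsg2 and Dsc2. By the same rule 56.4% of all protein-coding genes carried a Slug peak and 66.9% carried a Snail peak. Of the 8628 protein-coding genes with a span in the range of the members, from 12.3 to 59.4 kb, 60.6% carried a Slug peak and 76.5% a Snail peak. The share of members was thus above that background for Slug and close to it for Snail, in counts of 7 genes that were not tested. The Slug count fell to 5 members when peaks were placed by midpoint or only at their nearest protein-coding gene. With 7 genes, 1 gene moves a share by more than the gap between the members and all genes in the Snail list. Both factors had a peak at 5 members, Dsp, Jup, Pkp1, Pkp2 and Pkp3, against 44.9% of all protein-coding genes and 50.5% of those of like span.

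The Slug count rested in part on low-scoring and flanking peaks. Within the gene spans alone Slug peaks lay at 4 members (Dsp, Dsg2, Jup and Pkp1) and Snail peaks at 5, against 37.2% and 58.7% of all protein-coding genes. Among peaks at or above the median score of their own list Slug was at 4 members (Dsg2, Jup, Pkp1 and Pkp3) and Snail at 5, against 39.2% and 58.1%. With a score of at least 100 Slug was at 3 members (Jup, Pkp1 and Pkp3) and Snail at 5, against 34.1% and 61.3%, a minimum that is not equally strict in the lists. The backgrounds in this paragraph are over protein-coding genes of any span, not of like span.

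**Figure D1:**
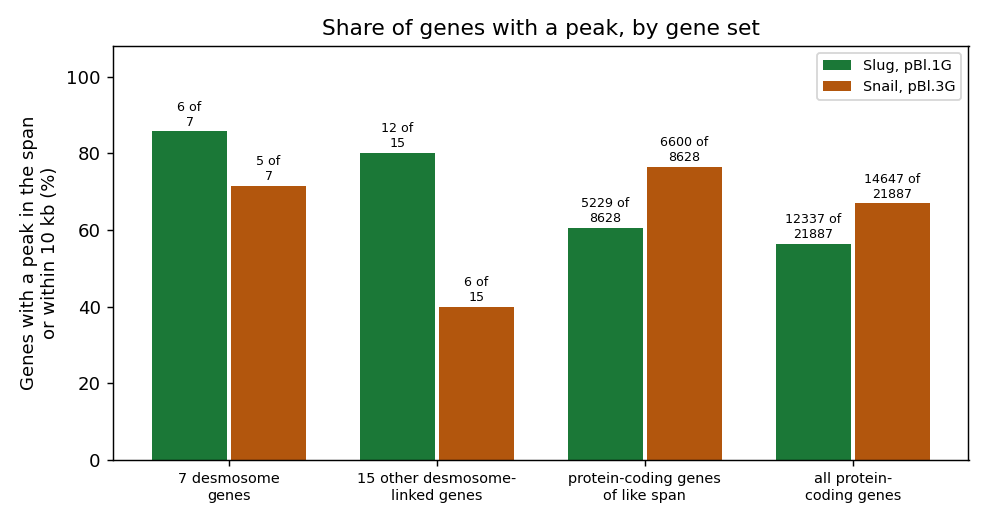
Share of genes with a Slug peak (green, left bar) or a Snail peak (brown, right bar) in the gene or within 10 kb, in percent, for the 7 desmosome genes, 15 other desmosome-linked genes, protein-coding genes with a span of 12.3 to 59.4 kb, and all protein-coding genes. Counts stand above the bars. The Slug bar is the taller one in both desmosome sets and the Snail bar in both background sets. For the 7 genes this is 6 against 5, and within gene spans alone the order turned, with Slug at 4 and Snail at 5. Among the 15 other genes the gap lay in the cadherin genes of 1 cluster. Of the 8 plaque and associated genes 6 had Slug and 6 had Snail peaks.

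As over all protein-coding genes, peaks over a gene end came mainly from the Snail list. Peaks of that list are also wider (list median 722 bp, against 206 bp for Slug). Whether width bears on the difference at gene ends was not tested. Snail peaks covered an end of the gene at 4 of 7 members, Dsp, Jup, Pkp1 and Pkp2, whereas Slug peaks covered an end at 0 of 7. Over all protein-coding genes 2.38% had a Slug peak over an end and 44.6% a Snail peak, and among genes of like span 2.63% and 53.9% did, so both counts of members were near the background. Of the Slug peaks, 9 touched a member gene and 6 lay outside it. Of the Snail peaks, 8 touched the gene, the 4 at the ends included, and 7 lay outside. The annotation used gave no exons, so peaks inside a gene are not assigned to exon or intron.

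**Figure D2:**
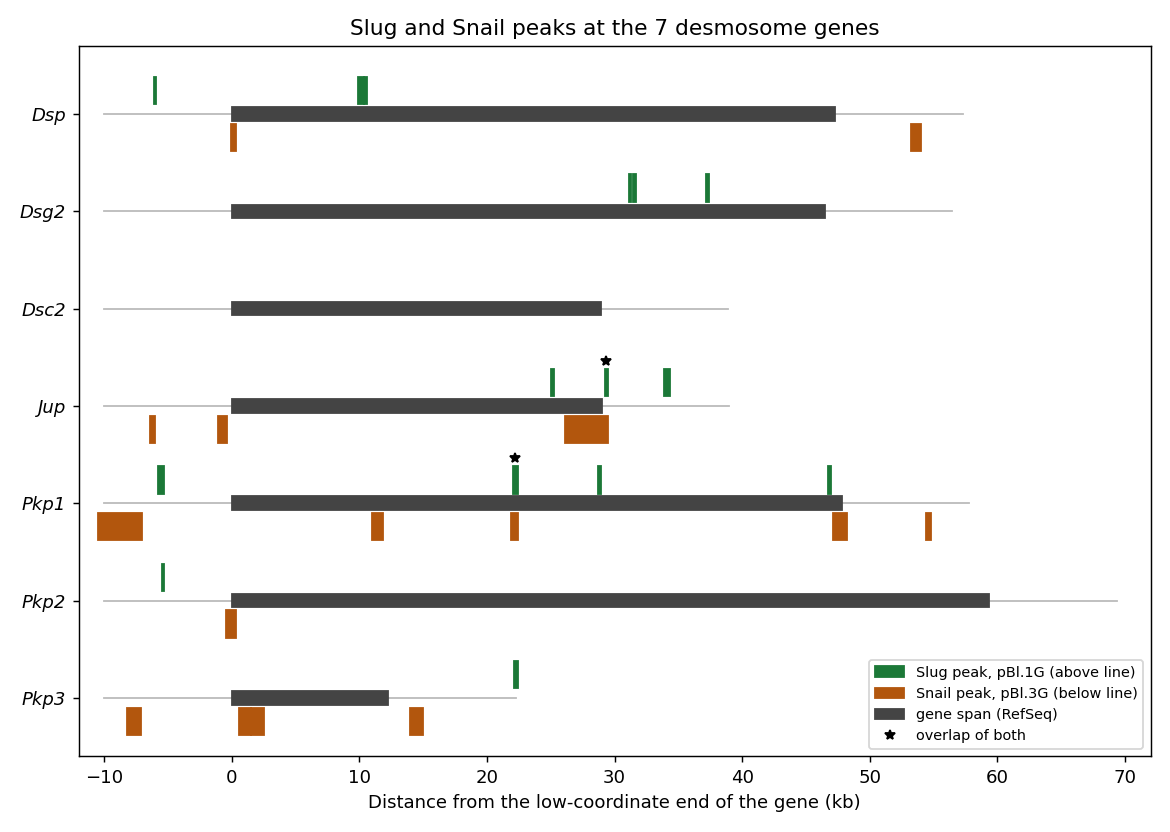
Map of the 7 genes, each drawn from its low-coordinate end, with distance in kb on the x axis. Dark bars are the RefSeq gene spans, thin lines the 10 kb on each side, green boxes above the line the 15 Slug peaks and brown boxes below it the 15 Snail peaks, and stars mark the 2 places where both overlap, at Jup and Pkp1. No box is drawn at Dsc2, and the boxes at Dsg2 are Slug peaks.

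Each deposited peak has a score from the authors' peak caller. Scores of the lists are not on a common scale, so each is given with the percent of peaks in its own list that score lower. The Slug peaks at the members were mostly modest: their scores ran from 50.3 to 220.4 with a median of 66.4, against a median of 81.1 over the whole Slug list, and 5 of 15 were above that list median. The Snail peaks ran from 54.0 to 1405 with a median of 217, against 151 over the whole Snail list, and 9 of 15 were above it. Of the Snail peaks 4 were nearer to another gene than to the member, with scores of 1042.5, 275, 217 and 64.1. The Snail median is thus the score of a peak inside Sigirr. Of the Slug peaks 1 was nearer to another gene, with a score of 155.7. Slug peaks at the members were 141 to 532 bp wide (median 227 bp, against 206 bp in the list), and Snail peaks 379 to 3481 bp (median 883 bp, against 722 bp).

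**Figure D3:**
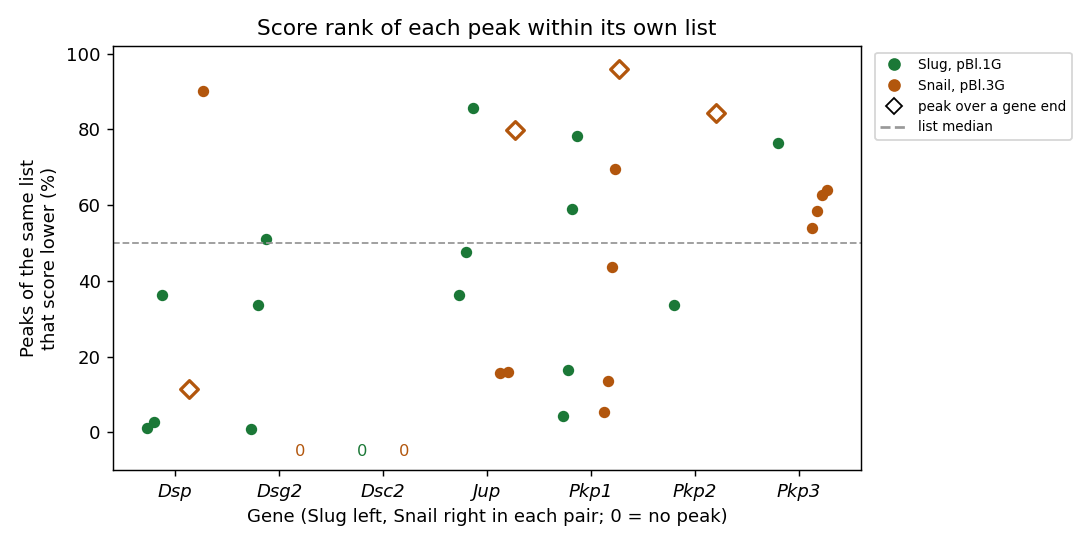
Score of every peak at the 7 genes as the percent of peaks in the same list that score lower (y axis), with Slug left and Snail right for each gene. Open diamonds are peaks over a gene end, the dashed line is the list median, and a 0 marks a gene without a peak. The Snail diamonds of Jup, Pkp1 and Pkp2 lie between 79.8% and 96.0%, and that of Dsp at 11.4%.

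Among the plaque genes, Dsp encodes desmoplakin, the plakin that anchors keratin filaments to the junction (gene ID 109620, chromosome 13, 38151294 to 38198577). Its Slug peaks were all low. The highest, at 38161198 to 38161641, lay 10.1 kb into the gene and scored 66.4, higher than 36.2% of the list. Next to it, a peak at 38161691 to 38161917 scored 50.3, and another, 5.91 kb before the gene start, scored 50.8. These last scores exceed 1.21% and 2.67% of Slug peaks, close to the lowest accepted score of 50. The Snail peak over the Dsp gene start, at 38151245 to 38151660, was also weak, with a score of 59.4 (11.4% lower). It covered the last 99 bases of the 300-base promoter window, including the CAGGTG shown in capitals above. The other Snail peak of the window, at 38204553 to 38205328, scored 1042.5 (90.1% lower) but lay 5.98 kb beyond the far end of Dsp, over the low-coordinate end of Snrnp48, a gene of the minor spliceosome (38204914 to 38227663). No Slug and Snail peak of Dsp came closer to each other than 5.86 kb.

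Jup encodes plakoglobin, the armadillo protein that binds the tails of desmosomal cadherins and is a close relative of beta-catenin (gene ID 16480, chromosome 11, 100368856 to 100397839, minus strand). Its gene start lay under the widest Snail peak over any member's end. That peak, at 100394998 to 100398347, was 3350 bp wide, wider than 99.1% of Snail peaks, scored 689 (79.8% lower) and covered all 300 bases of the promoter window. It held a Slug peak in full, the 269 bp at 100398068 to 100398336, with a score of 78.0 (47.6% lower), 278 bp before the gene start in the promoter table. A second Slug peak at 100393878 to 100394110, score 66.5, lay inside the gene, 887 bp from the Snail peak. The highest Slug score of any member, 220.4 (85.7% lower), belonged to the third, 463 bp wide at 100402742 to 100403204, 4.90 kb beyond the high-coordinate end, on the upstream side. Snail peaks beyond the other end of Jup scored 63.9 and 64.1. The first of them began 397 bp from the gene, and the other was nearer to Hap1, which encodes a huntingtin-associated protein.

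The plakophilins are armadillo proteins that gather desmoplakin and the cadherins into the plaque. Pkp1, known best from stratified epithelia (gene ID 18772, chromosome 1, 135871394 to 135919207), had more peaks than any other member, 4 of Slug and 5 of Snail. Of all protein-coding genes 9.43% had at least 4 Slug peaks and 4.47% at least 5 Snail peaks, and of those of like span 4.03% and 3.54%. The highest-scoring Snail peak of any member covered the high-coordinate end of Pkp1, at 135918484 to 135919618, with a score of 1405 (96.0% lower). A Slug peak at 135918128 to 135918350, score 55.4 (16.5% lower), stopped 133 bp short of it without overlap. The second overlap of the factors was 22.2 kb into Pkp1, where a Slug peak at 135893427 to 135893796, score 97.3 (59.0% lower), lay wholly inside a Snail peak at 135893280 to 135893829, score 61.5 (13.5% lower). The strongest Slug peak of Pkp1, 532 bp wide at 135865588 to 135866119, scored 164.8 (78.1% lower) and lay 5.28 kb beyond the low-coordinate end. It was 1.19 kb from a broad Snail peak of 3481 bp at 135860917 to 135864397, score 419.9. The remaining Slug peak, inside Pkp1, scored 51.3, and the remaining Snail peaks scored 121.4 inside the gene and 54.0 beyond its high-coordinate end.

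Pkp2, the plakophilin of heart and simple epithelia (gene ID 67451, chromosome 16, 16213345 to 16272712), is the longest member and had the fewest peaks of the members with both factors, 1 of each. The Snail peak, at 16212877 to 16213682, covered its low-coordinate end and scored 829.55 (84.3% lower). The Slug peak, at 16207884 to 16208024, was the narrowest of the 15 at 141 bp. It scored 64.3 (33.6% lower) and lay 5.32 kb outside the gene, 4.85 kb from the Snail peak.

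Pkp3, the plakophilin found widely in epithelia (gene ID 56460, chromosome 7, 141078229 to 141090511), is the shortest member, with 4 Snail peaks and 1 Slug peak. A pair of Snail peaks lay just inside its low-coordinate end. They spanned 141078767 to 141079703 and 141079751 to 141080795 and scored 176 and 299.5 (53.9% and 64.0% lower). Another Snail peak, 1.68 kb beyond the high-coordinate end, scored 217 and lay inside Sigirr, a receptor gene of the interleukin-1 receptor family. The fourth, 7.15 kb before the low-coordinate end, scored 275 and lay inside B4galnt4, a glycosyltransferase gene. The Slug peak, at 141100371 to 141100668 with a score of 155.7 (76.4% lower), entered the 10 kb window by its edge, 9.86 kb from the gene, and lay over the high-coordinate end of Sigirr (141091175 to 141100597). When a peak was counted only by its midpoint, Pkp3 had no Slug peak. Slug and Snail were then at 5 members each, against 56.2% and 66.7% of all protein-coding genes.

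The desmosomal cadherin genes had no Snail peak. Dsg2, the desmoglein made in most desmosome-bearing tissues (gene ID 13511, chromosome 18, 20558074 to 20604526), had 3 Slug peaks, all inside the gene, between 31.2 and 37.3 kb from its low-coordinate end. They scored 50.3, 64.3 and 82.7, and 0.86%, 33.7% and 51.1% of Slug peaks scored lower. The nearest Snail peak was 141 kb away. Dsc2, a widely expressed desmocollin (gene ID 13506, chromosome 18, 20030633 to 20059554), had no peak of either factor in its window. The same held for 21.6% of all protein-coding genes and 13.4% of those of like span. The nearest Slug peak to Dsc2, score 55.5, was 15.2 kb away and nearer to Dsc3, and the nearest Snail peak was 194 kb away.

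Dsg2 and Dsc2 belong to a cluster of 9 desmosomal cadherin genes that runs for 644 kb from Dsc3 to Dsg2 with no other protein-coding gene between them. Across this cluster and 10 kb on each side the lists held 19 Slug peaks and 0 Snail peaks. The nearest Snail peaks lay 125 kb below Dsc3 and 141 kb above Dsg2, with scores of 74.0 and 57.0, so that 909 kb held no Snail peak and 22 Slug peaks. Of the 19 Slug peaks 10 touched a cadherin gene, and 6 scored above the list median. Their median score was 64.3 and the highest, 449, belonged to a peak at 20228443 to 20229058 between Dsc1 and Dsg1c. Each chromosome, from its first to its last protein-coding gene, was cut end to end into stretches of the same length. Of the 4043 stretches, 23.9% held no Snail peak and 12.9% held at least 19 Slug peaks. Both held for 9 stretches, or 0.223%, a pairing of criteria that was chosen after the values of the cluster were seen. Of the 895 stretches with at least 9 protein-coding genes, 5.36% held no Snail peak. A peak list holds what passed the peak caller's threshold, so a gene without a peak is not shown to be unbound.

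**Figure D4:**
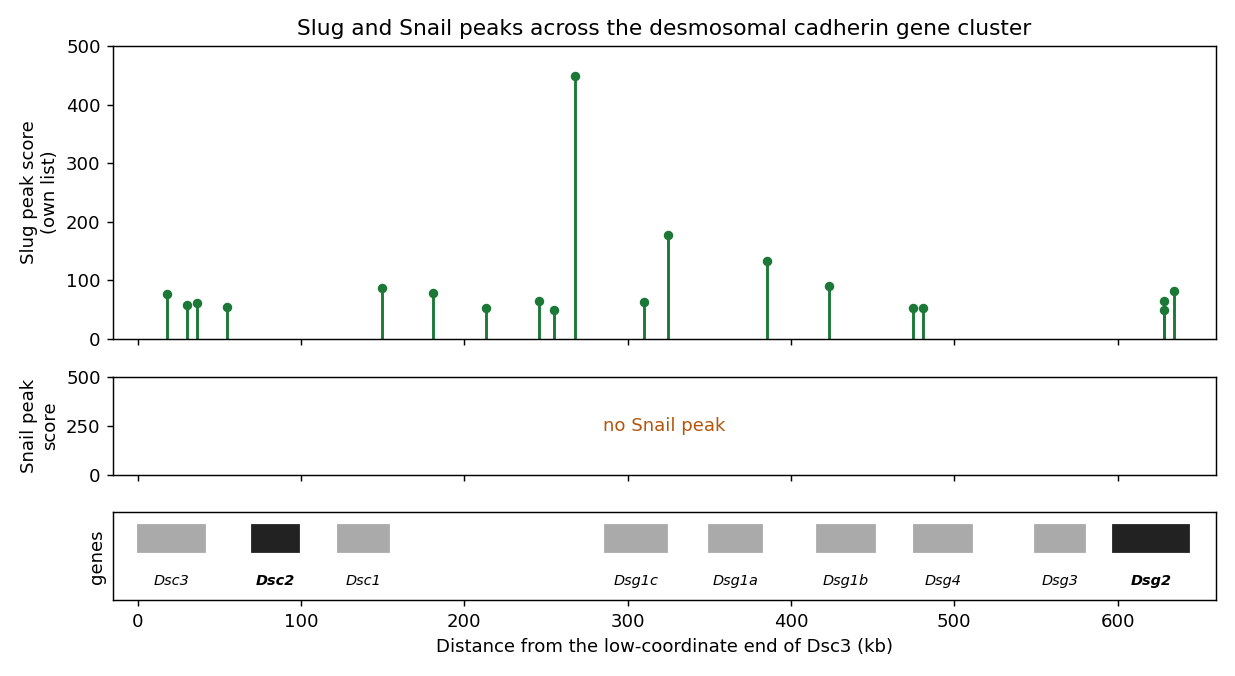
Peaks across the 644 kb cluster of desmosomal cadherin genes, by distance from the low-coordinate end of Dsc3 in kb. The upper panel gives the score of the 19 Slug peaks, the middle panel is empty because the Snail list had 0 peaks, and the lower panel shows the 9 genes, with Dsc2 and Dsg2 in black. The Slug peak of score 449 stands between Dsc1 and Dsg1c.

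Slug and Snail peaks overlapped at 2 of the 7 desmosome genes. Of the 15 Slug peaks 2 overlapped a Snail peak by at least 1 bp (13.3%, exact binomial 95% interval 1.66 to 40.5, for counting error only). The same count and share held for the 15 Snail peaks. The interval takes the peaks as independent, though the Slug peaks lie at 6 members and the Snail peaks at 5, some side by side. Among peaks in the window of any protein-coding gene 14.7% of Slug and 15.2% of Snail peaks overlapped the other list, so the members' shares were near the background. The overlaps belonged to Jup and Pkp1, 2 of the 7 members. Such a site was found at 18.5% of all protein-coding genes and 18.9% of those of like span. At Jup and at Pkp1 the Slug peak lay wholly within the wider Snail peak.

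Slug peaks lay at 12 of 15 further desmosome-linked genes (80.0%) and Snail peaks at 6 (40.0%), against 56.4% and 66.9% of all protein-coding genes. The gap came from the 7 further cadherin genes, all in the cluster: Slug was at 6 of them, Snail at 0, and Dsg3 had neither. The windows of Dsg3 and Dsg2 overlap, and no peak lay in the part they share. Of the 8 plaque and associated genes 6 had Slug peaks and 6 had Snail peaks. Ppl (periplakin) had 7 Slug and 4 Snail peaks, and Evpl (envoplakin) had 3 and 1, and these plakin genes of the cornified envelope were the members of this list with overlapping peaks. Pkp4, a plakophilin relative also found in adherens junctions, had 6 Slug peaks, the highest at 560.9 (98.0% lower), and 5 Snail peaks, the highest at 250.8. Its span of 194 kb, and so its window, is longer than that of any member (59.4 kb at most). Cdsn (corneodesmosin) had 2 of each factor, the highest at 54.6 (14.8% lower) for Slug and 388.4 (68.2% lower) for Snail. Kazn, which encodes the periplakin-binding protein kazrin and spans 137 kb, had 4 Slug peaks, the highest at 439.5 (96.5% lower), and no Snail peak. Pof1b had 1 Slug peak at 51.9 and no Snail peak. Perp, a desmosomal membrane protein gene, and Tchp, which encodes the keratin-binding trichoplein, had the reverse, with 2 Snail peaks each, the highest at 442 and 797.8, and no Slug peak.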

How the data were processed

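ChIP-seq of 2 libraries was used as deposited peak lists, 1 list per factor. The submitters' processing notes name Bowtie, MACS 1.4.2 and mm10. The Bowtie version, the peak caller's settings and the control library were not given in the sources used here. The score of each peak is the authors' deposited value. By MACS convention it is a log-transformed p-value, a scale that the files themselves leave unstated. Depth is unknown. The labels spell the lines of the input libraries pB1.1G and pB1.3G, with the digit.

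Starts were made 1-based. Genes came from a RefSeq table of GRCm38.p6 (chromosomes 1 to 19, X and Y) without exons, and sequence under the peaks was not analysed here. A peak was assigned when any base lay in the gene or the 10 kb on each side, and peaks were shared at 1 bp of overlap. Python 3.11.15, numpy 2.4.6, pandas 2.3.3, scipy 1.17.1 and matplotlib 3.10.9 were used, and the interval steps were tested on simulated data. The named genes are all members, all genes of a fixed list of 15 desmosome-linked genes, and nearer neighbours of a member's peak. Members and lists were chosen with earlier results of these data known. The 10 alternatives covered window, assignment, score and overlap.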

Additional observations from a re-analysis of the deposited data

How the results depend on the processing

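Snail peaks lay at 5 members under each of the 8 window, assignment and score alternatives, and Slug peaks at 4 to 7, except with a score of at least 100, which left 3. Within the gene span alone there were 9 Slug and 8 Snail peaks, and 1 of the Slug peaks overlapped a Snail peak. With 1 kb on each side there were 9 Snail peaks. A score of at least 100 left 3 Slug peaks, and the median score left 5 Slug and 9 Snail peaks. Under either score setting 0 Slug and 0 Snail peaks overlapped, and 0 members had a shared site. A reciprocal overlap of 50%, or midpoints at most 500 bp apart, left 1 shared Slug peak, 1 shared Snail peak and 1 member, Pkp1. Snail peaks over a gene end were at 3 or 4 members, the Dsp peak being the one lost to both score settings. In the cadherin cluster the Slug peaks numbered 3 with a score of at least 100, 6 at or above the median score and 11 with lists of equal length, in settings added after seeing the data, and Snail peaks stayed at 0. No paired analysis was possible because each factor has 1 library.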

Other observations

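Just outside the 10 kb limit, a Slug peak (score 101.6) overlapped a Snail peak (score 512.9), 12.6 and 11.8 kb below the low-coordinate end of Jup, nearest to Hap1. A Snail peak with a score of 126.2 lay 14.2 kb above Pkp1 and was nearest to that gene.

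Over all RefSeq promoters, the CAGGTG seen at the Dsp gene start was held by 39.1% of the 1055 promoter windows under a Slug peak and by 17.0% of the 12017 under a Snail peak, against 20.2% of all 32851. These are shares of letters in 300-base windows in 1 library each and were not tested.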
